A study of Mus musculus with 2 samples.

Results

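A set of 10 genes of the prolactin and growth hormone route to STAT5 is described here: the receptors Prlr and Ghr, the kinase Jak2, the transcription factors Stat5a and Stat5b, the repressor Bcl6, and the feedback inhibitors Cish, Socs1, Socs2 and Socs3. They were taken by name, as every gene probe of the array files carrying one of these 10 gene names, which gave 16 probes in 25 spots out of 55681 gene probes in 59305 spots. The study measured total RNA of cells labelled beta-cell from the strain C57BL/6J at an age of 6 months, and both groups were fed a high-fat diet. The control group was wild type (CSE-WT), the other was a knockout of CSE (CSE-KO), the hydrogen sulfide-producing enzyme encoded by Cth, and each was hybridised to 1 array. How many animals were pooled and how the cells were obtained are not given in the sources used here. With 1 array per genotype no difference has a replicate check and no test was possible, so every value below describes these 2 samples. The set was chosen by measured values of these same arrays: Cish had the lowest CSE-KO minus CSE-WT difference among well-expressed genes, and the other members were proposed around it with earlier results in view, so no difference of a member is evidence independent of that choice.

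Prolactin and growth hormone each bind a single-pass receptor of the cytokine receptor family that carries JAK2 on its inner tail. Ligand binding activates JAK2, which phosphorylates STAT5A and STAT5B, and the STAT5 dimers enter the nucleus and bind DNA at the palindrome TTCNNNGAA, where N is any base. CIS (from Cish) and the SOCS proteins are induced by STATs and then block the receptors and kinases, so their transcripts are commonly used as a readout of recent cytokine signalling. BCL6 is a repressor whose DNA sites resemble those of STATs. In islets this route is best known for the growth of beta cells in pregnancy, and rodent beta cells carry both receptors.

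Promoter sequences are shown for the members whose windows hold the STAT5 palindrome, and for Cish, the gene that differed most. Promoter windows of 250 bases before an annotated start were read from RefSeq (GRCm38.p6), which had 15 windows for 9 of the 10 members, all but Socs2. TTCNNNGAA reads the same on both strands, and it was found in 4 of the 15 windows, belonging to 3 members, Bcl6, Prlr and Socs3. Of all 32851 windows of that length, 7.02% held it. In the sequences below, each written 5′ to 3′ on the strand of the gene, capitals mark TTCNNNGAA.
Bcl6, upstream start, chr16:23988853-23989102, minus strand: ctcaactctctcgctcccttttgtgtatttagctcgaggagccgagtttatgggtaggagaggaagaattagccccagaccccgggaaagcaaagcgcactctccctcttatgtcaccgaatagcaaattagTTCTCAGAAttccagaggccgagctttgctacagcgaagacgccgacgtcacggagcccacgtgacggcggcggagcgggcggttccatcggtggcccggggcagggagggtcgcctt
Bcl6, downstream start, chr16:23981284-23981533, minus strand: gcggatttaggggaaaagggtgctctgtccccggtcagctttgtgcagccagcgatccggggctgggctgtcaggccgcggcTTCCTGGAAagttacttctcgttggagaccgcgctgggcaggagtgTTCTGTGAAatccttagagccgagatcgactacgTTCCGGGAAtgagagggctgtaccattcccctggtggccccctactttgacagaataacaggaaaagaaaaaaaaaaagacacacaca
Prlr, one of 3 starts, chr15:10223656-10223905, plus strand: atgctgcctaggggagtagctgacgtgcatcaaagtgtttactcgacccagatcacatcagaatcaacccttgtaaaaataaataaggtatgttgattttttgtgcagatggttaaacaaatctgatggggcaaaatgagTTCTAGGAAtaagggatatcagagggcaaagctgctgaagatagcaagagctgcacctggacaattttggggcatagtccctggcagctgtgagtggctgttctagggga
Socs3, chr11:117969367-117969616, minus strand: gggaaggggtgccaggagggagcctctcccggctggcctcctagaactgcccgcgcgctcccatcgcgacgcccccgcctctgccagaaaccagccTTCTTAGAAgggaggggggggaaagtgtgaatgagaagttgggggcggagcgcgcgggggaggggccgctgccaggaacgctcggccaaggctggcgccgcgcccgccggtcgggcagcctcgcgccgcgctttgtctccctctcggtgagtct
Cish, chr9:107296409-107296658, plus strand: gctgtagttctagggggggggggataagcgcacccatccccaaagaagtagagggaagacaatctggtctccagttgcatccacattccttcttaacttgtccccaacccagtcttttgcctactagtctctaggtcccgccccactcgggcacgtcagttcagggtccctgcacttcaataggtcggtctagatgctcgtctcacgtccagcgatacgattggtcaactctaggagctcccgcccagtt
The downstream Bcl6 window held 3 matches, TTCCTGGAA, TTCTGTGAA and TTCCGGGAA, beginning 168, 122 and 88 bases before the start. Only 9 of the 32851 windows (0.0274%) held 3 or more. The other 3 windows held 1 match each, TTCTCAGAA 118 bases before the upstream Bcl6 start, TTCTAGGAA 110 bases before the Prlr start and TTCTTAGAA 154 bases before the Socs3 start. The Cish window held none, which says only that these letters are not in its 250 bases. The same half-sites spaced by 4 bases instead of 3 were in 0 of the 15 windows and in 5.85% of all windows. A match is a description of the letters and was not tested as a binding site.

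Both arrays lay on 1 slide, and each gave a processed intensity, the brightness of a spot after spatial detrending. Below, an intensity is in these units with the error that the scanner program assigns to it. A difference is CSE-KO minus CSE-WT on a log2 scale after each array was divided by its 75th percentile, which was 519 units for CSE-WT and 540 for CSE-KO. A gene counted as measured when a probe was well above background on both arrays, and a gene with several measured probes is represented by the brightest of them on average. All 10 members were measured, and 15 of their 16 probes. The spot SD given with a difference is technical. It comes from 399 probes printed 10 times and covers the scatter between spots of 1 array, not animals or preparations. It also leaves out disagreement between different probes of a gene. Over 4540 genes with several measured probes, the difference had an SD between probes of 0.0995 in the median gene. The root mean square of that SD was 0.254, while the spot SD at the median level was 0.084. Among 22138 measured genes 197 (0.89%) were at least 2-fold lower in CSE-KO and 159 (0.718%) at least 2-fold higher. By more than 3 spot SDs, 8.5% of measured genes were lower and 7.17% higher.

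The knocked-out gene Cth failed the background rule in both samples. Its 2 probes gave 13.5 and 12.8 units in CSE-WT and 3.15 and 3.68 in CSE-KO, against a 95th percentile of 308 negative-control spots of 4.32 and 3.43, and where they lie relative to the deletion is not known. The defining beta-cell markers were bright on both arrays, with Ins1 at 503410 and 482701 units in CSE-WT and CSE-KO and Ins2 at 332046 and 330923. The samples were not beta cells alone, since the alpha-cell hormone gene Gcg stood at 381995 and 361049 units. The delta-cell hormone gene Sst (234698 and 235266 units) and the PP-cell gene Ppy (252516 and 241835) were also bright. So was the acinar enzyme gene Amy2a5 (191897 and 149025 units), of the exocrine pancreas. In bulk RNA of this kind, fewer cells of a type and less RNA per cell cannot be told apart.

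Of the 10 members, 1 was at least 2-fold lower in CSE-KO (Cish) and 0 were at least 2-fold higher. The median difference of the members was -0.22, with 8 lower and 2 higher, and that of all measured genes was -0.01, with 11362 (51.3%) lower and 10776 higher. Past 3 spot SDs, 5 members were lower (Cish, Socs3, Socs2, Ghr and Bcl6) and 1 was higher (Jak2). Of all measured genes, 8.5% were lower and 7.17% higher past 3 spot SDs, and 0.89% and 0.718% by 2-fold. Because the members were proposed from this comparison, nothing is read from these counts. The 3 lowest were Cish, Socs3 and Socs2, followed by the receptor Ghr at -0.41, while the inhibitor Socs1 was higher at 0.35.

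**Figure D1:**
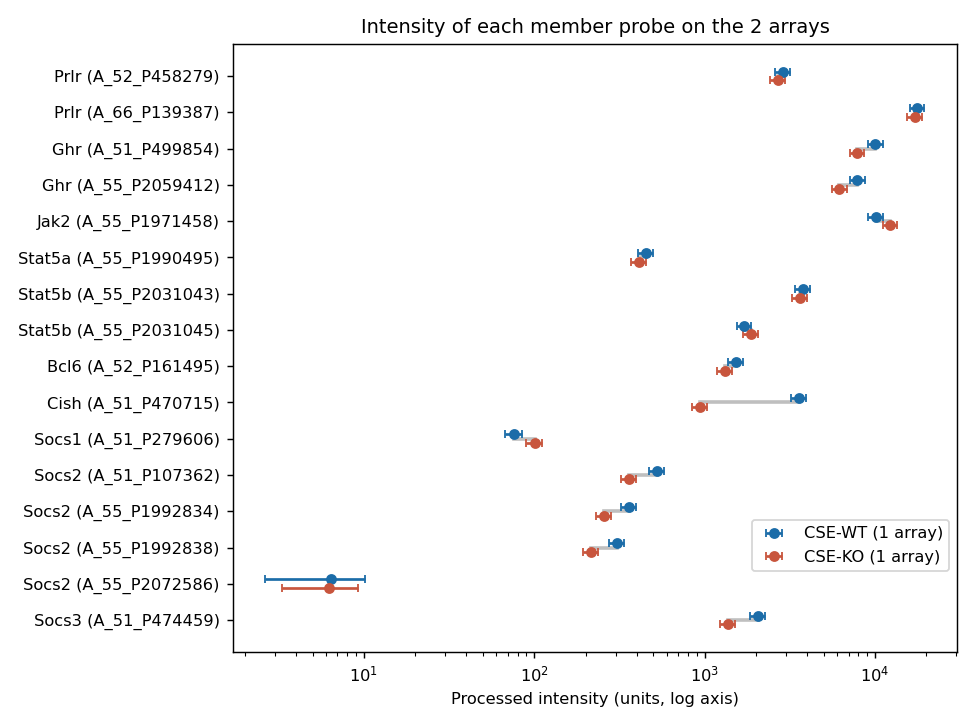
Processed intensity (log axis) of each of the 16 member probes on the CSE-WT array and the CSE-KO array, 1 array each, with bars for the error given by the scanner program. The pair of Cish points, 3563 and 938 units, stands widest apart. The pairs of Ghr, Socs1, Socs3 and the measured Socs2 probes separate by less. The points of Prlr, Jak2, Stat5a, Stat5b, Bcl6 and the Socs2 probe near background overlap within their bars.

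Both receptors were strongly detected in both samples. Prlr, the prolactin receptor, was read by 2 probes on chromosome 15 (mm9, plus strand). The probe at 10259066 to 10259125 gave 17756 ± 1776 units in CSE-WT and 17178 ± 1718 in CSE-KO. The probe at 10255629 to 10255688 gave 2873 ± 287 units in CSE-WT and 2692 ± 269 in CSE-KO. Both pairs overlap within the scanner error, and the differences of -0.10 (spot SD 0.06) and -0.15 (spot SD 0.06) were under 3 spot SDs. Measured genes with a difference as low as that of Prlr made up 29.6% of the total.

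Ghr, the growth hormone receptor, was lower in CSE-KO by both of its probes. The probe designed on NM_010284, at 3268107 to 3268166 on the minus strand of chromosome 15, gave 10072 ± 1007 units in CSE-WT and 7885 ± 789 in CSE-KO. The probe designed on NM_001048178, another Ghr transcript, lies at 3277543 to 3277602 and gave 7896 ± 790 units in CSE-WT and 6190 ± 619 in CSE-KO. The ranges do not overlap for either probe. The differences were -0.41 and -0.41 (spot SD 0.06 each), which is 1.33-fold lower, and 5.14% of measured genes were as low or lower.

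Jak2, the kinase that both receptors share, was 1 of the 2 members that were higher in CSE-KO. Its probe on chromosome 19 (29387487 to 29387546, plus strand) gave 10124 ± 1012 units in CSE-WT and 12319 ± 1232 in CSE-KO. These ranges overlap, while the difference of 0.23 (spot SD 0.06, 1.17-fold) was past 3 spot SDs, and 14.9% of measured genes were as high or higher. It rests on a single probe and is no larger than the root mean square SD between probes of a gene, 0.254.

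The STAT5 genes lie next to each other on chromosome 11 and encode closely related proteins. Whether a probe for one also binds the transcript of the other was not checked. Stat5a gave 451 ± 45.3 units in CSE-WT and 411 ± 41.2 in CSE-KO by its probe at 100746373 to 100746432, a difference of -0.19 (spot SD 0.09). The brighter Stat5b probe, at 100642045 to 100642104, gave 3759 ± 376 units in CSE-WT and 3624 ± 362 in CSE-KO, a difference of -0.11 (spot SD 0.06). The other Stat5b probe, at 100642187 to 100642246, pointed the other way, with 1713 ± 171 units in CSE-WT, 1864 ± 186 in CSE-KO and a difference of 0.07 (spot SD 0.07). None of the 3 STAT5 probes passed 3 spot SDs, and no direction is given for Stat5b.

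Bcl6, the repressor whose promoter windows held 4 of the palindromes shown above, was slightly lower in CSE-KO. Its only probe, on chromosome 16 (23965160 to 23965219, minus strand), gave 1519 ± 152 units in CSE-WT and 1320 ± 132 in CSE-KO. The ranges overlap, and the difference of -0.26 (spot SD 0.07, 1.20-fold lower) was just past 3 spot SDs. Its size is about that of the root mean square SD between probes of a gene, 0.254. As low or lower were 10.9% of measured genes.

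Cish, which encodes a feedback inhibitor that binds activated cytokine receptors where STAT5 docks, differed most. Its only probe, 60 bases at 107204196 to 107204255 on the plus strand of chromosome 9 (mm9), gave 3563 ± 356 units in CSE-WT and 938 ± 93.9 in CSE-KO. The CSE-WT value was 3.95-fold that of CSE-KO, a difference of -1.98 (spot SD 0.07). In the authors' deposited table, which is scaled differently, the same probe had 3605 and 920 units, a difference of -1.97. Across the alternative processings the difference lay between -1.98 and -1.88. Cish was the lowest of 8746 genes with a current symbol above the median level of measured genes, and 77 of all 22138 measured genes (0.348%) were as low or lower. Only 3 genes above the median level, Cish included, were at least 2-fold lower, and 14 were at least 2-fold higher. The genes nearest to it from above were Syce1, of the meiotic synaptonemal complex, at -1.49 (1216 and 451 units), Apod, an apolipoprotein gene, at -1.12 (7577 and 3623 units), and Slc38a5, an amino acid transporter gene, at -0.999 (5195 and 2702 units). Nearness here rests on 1 difference between 2 samples and carries no measure of a shared pattern.

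**Figure D2:**
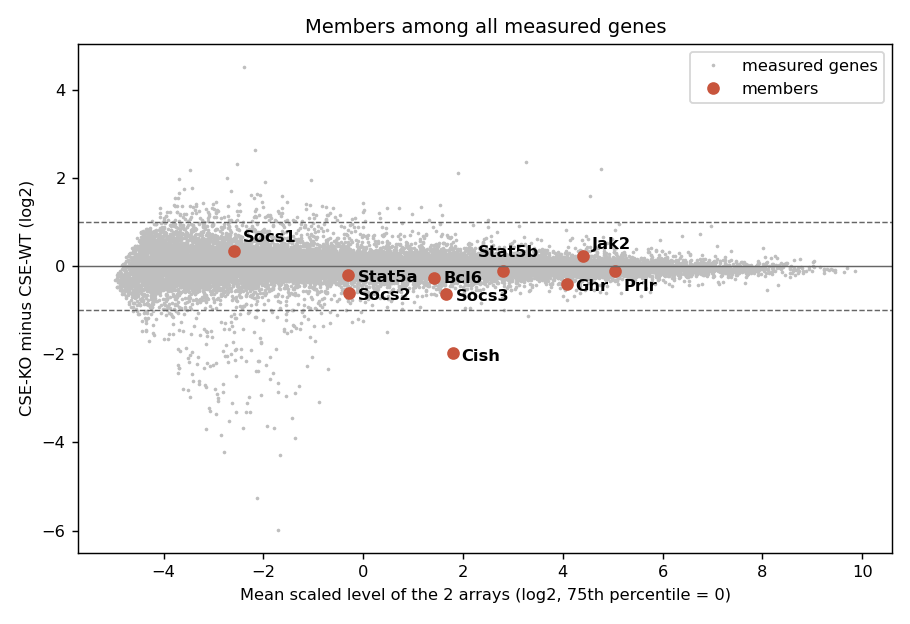
Difference CSE-KO minus CSE-WT (log2) against the mean scaled level of the 2 arrays (log2, with the 75th percentile at 0), with 22138 measured genes as grey points and the 10 members in red, and dashed lines at 2-fold. Cish lies at -1.98, below every other gene above the median level of 0.15, while the grey points that reach as low are dim.

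Socs2, the member of the family best known for restraining growth hormone signalling, was also lower in CSE-KO, and its main probe was printed at 10 places on each array. That probe, at 94875066 to 94875125 on the minus strand of chromosome 10, had a lowest, median and highest spot of 481, 532 and 549 units in CSE-WT and of 327, 361 and 386 units in CSE-KO. The brightest CSE-KO spot was thus below the dimmest CSE-WT spot, and all 10 positions were lower in CSE-KO. The means were 524 ± 23.1 units (SD over 10 spots of 1 array) and 359 ± 17.4 units. The difference was -0.60 ± 0.08 (SD over the 10 positions), or 1.52-fold lower. These spots share 1 labelled RNA per array, so their agreement speaks of spot noise and not of animals. Of 285 measured probes printed 10 times, 60 were lower at all 10 positions and 70 higher at all 10, and 5, Socs2 included, had a mean difference as low as this one.

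**Figure D3:**
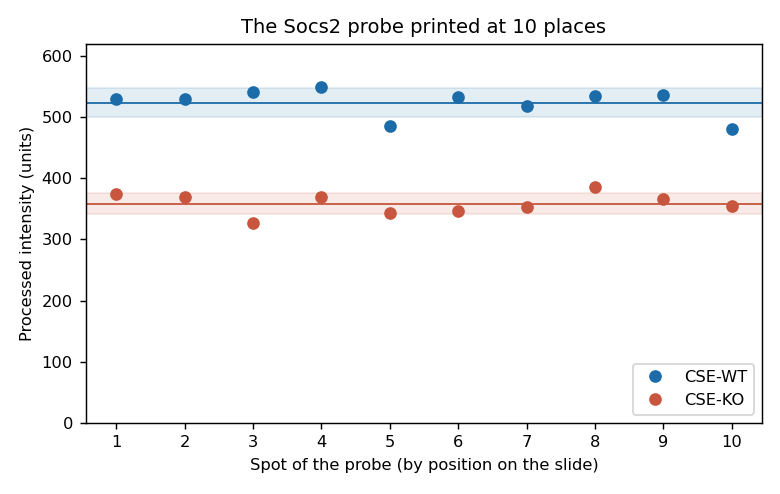
Processed intensity (units, axis from 0) of the Socs2 probe at each of its 10 positions on the CSE-WT and CSE-KO arrays, with a line at each mean and a band of 1 SD over spots. Every CSE-WT spot (481 to 549 units) lies above every CSE-KO spot (327 to 386 units).

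The other measured Socs2 probes gave nearly the same difference. The probe at 94875187 to 94875246 had 361 ± 36.4 units in CSE-WT and 257 ± 25.9 in CSE-KO, a difference of -0.55 (spot SD 0.10). The probe at 94875468 to 94875527 had 305 ± 30.8 and 216 ± 21.9 units, a difference of -0.55 (spot SD 0.12). The remaining probe named Socs2, at 94848005 to 94848064 and designed on a different transcript, did not pass the background rule in either sample (6.42 and 6.28 units), and no fold is given for it. The 3 measured probes therefore lay within 0.06 log2 units of each other. As low or lower than Socs2 were 2.35% of measured genes.

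Socs3, which inhibits cytokine receptors that signal through STAT3 as well as through STAT5, was lower in CSE-KO by a similar amount. Its probe on chromosome 11 (117827480 to 117827539, minus strand) gave 2049 ± 205 units in CSE-WT and 1375 ± 138 in CSE-KO, ranges that do not overlap. The difference was -0.63 (spot SD 0.07), 1.55-fold lower, and 2.17% of measured genes were as low or lower.

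Socs1, the inhibitor that acts directly on JAK kinases and is strongly induced by interferon, lay on the other side of 0 from the other 3 inhibitors. It was dim, with 76.0 ± 8.62 units in CSE-WT and 101 ± 10.6 in CSE-KO by its probe at 10783951 to 10784010 on the minus strand of chromosome 16. At this level the spot SD of a difference was 0.24, so the difference of 0.35 was within 3 spot SDs, although the scanner error ranges do not overlap.

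**Figure D4:**
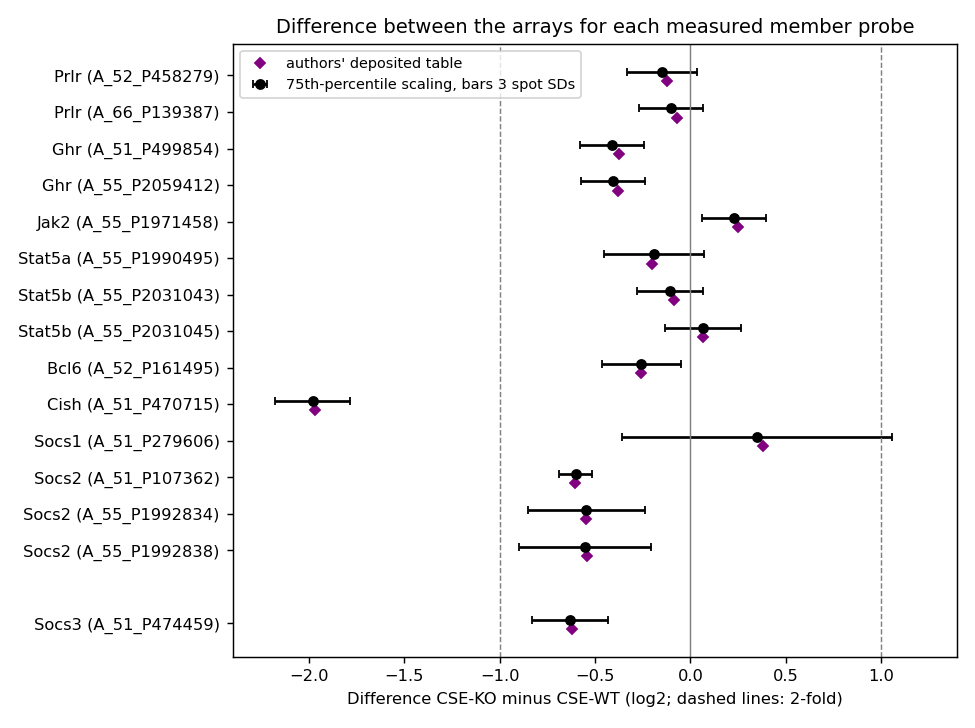
Difference CSE-KO minus CSE-WT (log2) of the 15 measured member probes, as black points with bars of 3 spot SDs, with the authors' deposited table as diamonds and dashed lines at 2-fold. Both Ghr probes sit together near -0.41 and the 3 Socs2 probes between -0.60 and -0.55, while the 2 Stat5b probes lie on either side of 0.

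Prolactin and growth hormone are made in the pituitary, and their own genes were at or near background in these samples. Prl was below background on both arrays (7.10 and 3.19 units). Gh was well above background on the CSE-WT array only (17.96 units against 11.04), at least 1.29-fold higher there. The bound compares its CSE-WT level with the dimmest signal that passed the background rule in CSE-KO. The placental lactogen genes Prl3b1 (307 and 327 units) and Prl3d1 (384 and 364 units) were measured, with differences of 0.03 (spot SD 0.10) and -0.13 (spot SD 0.09). Another Prl3d1 probe was below background on both arrays (3.78 and 3.12 units). The Prl3d1 probes thus disagree on whether its transcript is present. Of 18 genes listed as ligands 7 were measured, 4 higher and 3 lower. Ghrl and Ghrh are among these 7, although their peptides do not bind the cytokine receptors. No measured gene for a ligand of the cytokine receptors was past 3 spot SDs. Only Ghrl was, which encodes ghrelin, a peptide of islet epsilon cells that stimulates growth hormone release. Among all measured genes 7.17% were higher by that rule. Ghrl was 2.51-fold higher in CSE-KO (541 and 1408 units).

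The rest of the JAK-STAT core showed no common direction. Of 21 measured genes 10 were higher and 11 lower, with a median of -0.02. Past 3 spot SDs 4 were higher (Tyk2, Pias1, Stat2 and Sh2b1) and 2 lower (Jak3 and Pias2), against 7.17% and 8.5% of all measured genes. Tyk2, a JAK of interferon receptors, differed by 0.30, Pias1, an inhibitor of STAT signalling, by 0.30 and Stat2, a factor of the interferon route, by 0.26. The other Pias1 probes gave -0.06 and 0.29. Jak3, the kinase of lymphocyte cytokine receptors, was 2.20-fold lower by its chosen probe, but its other probe gave 0.22, and the spots around the chosen probe had a median difference of -0.23. Stat3, the close relative of STAT5 that lies beside Stat5a, differed by -0.02 (3893 and 3992 units).

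Other cytokine receptors were likewise mixed, with 14 of 24 measured genes higher and 10 lower (median 0.05). Past 3 spot SDs, 1 was higher (Csf3r, the receptor of granulocyte colony-stimulating factor, at 0.18) and 2 were lower. These were Il13ra1, an interleukin-13 receptor chain (-0.71), and Il6st, the signalling chain shared by interleukin-6 and related cytokines (-0.27). Of all measured genes, 7.17% were higher and 8.5% lower past 3 spot SDs. Below 3 spot SDs, Il2rg differed by 0.53 and Il22ra1 by 0.51.

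Genes known to respond to prolactin or growth hormone showed no common direction. Of 23 measured genes 12 were higher and 11 lower, with a median of 0.02. Past 3 spot SDs 3 were higher and 2 lower, where the shares among all measured genes were 7.17% and 8.5%. Birc5, a mitotic survival gene, was 2.33-fold higher (337 and 817 units, its other probes at 0.75 and 0.76), and Foxm1, a transcription factor of beta-cell division, differed by 0.65 (119 and 194 units). Ivd, an enzyme of leucine breakdown, differed by 0.26, the growth hormone-regulated Igfbp3 by -0.35 and the cyclin gene Ccnd2 by -0.17 (57196 and 52684 units). Pim1, a kinase gene induced by STAT5, differed by 0.48 with a spot SD of 0.36. Tph1, the serotonin-synthesis enzyme that prolactin induces in islets, was above background only in CSE-KO (56.6 units against 4.16), at least 3.08-fold higher there. Tph2 and Htr2b were also above background only in CSE-KO, but so dim that no fold is given. Cish and Tph1, both known as prolactin-responsive in islets, stood on opposite sides in these 2 samples, Tph1 by a dim probe. Prolactin signalling itself was not tested.

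Genes that respond to STAT3 and to interferon were also given a list each. Among STAT3 and acute-phase genes 8 of 16 were higher and 8 lower (median -0.05). Past 3 spot SDs, Cebpd, a transcription factor gene (3539 and 2062 units, -0.84), Fos (-0.62) and Bcl3 (-0.33) were lower. The secreted lectin gene Reg3b was higher (1.61, 71.0 and 225 units). Among all measured genes 8.5% were lower and 7.17% higher by that rule. Of 2 listed genes above background on 1 array only, Reg3g was at least 6.80-fold higher in CSE-KO (17.9 and 126 units), whereas Lbp, which encodes a lipopolysaccharide-binding protein, was at least 1.35-fold higher in CSE-WT (18.8 and 2.95 units). Icam1 differed by 0.51 with a spot SD of 0.52. Socs3 is also induced by STAT3, and whether its difference is linked to those of the listed genes was not tested.

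Interferon-responsive genes were mostly higher in CSE-KO, 14 of 18 with a median of 0.24, whereas 51.3% of all measured genes were lower. Past 3 spot SDs, 8 were higher and 2 lower, against 7.17% and 8.5% of all measured genes. The 2 lower were Irf1 (-0.23, 3541 and 3140 units) and Gbp2 (-0.41). The spots around the Gbp2 probe had a median difference of -0.46. With normexp background correction the list median was smaller, 0.14 with the 75th percentile and 0.15 with quantile normalization. The chemokine gene Cxcl10 was 2.59-fold higher, the transcription factor gene Irf7 2.18-fold, the antiviral gene Mx1 2.04-fold (within 3 spot SDs) and Ifit3 1.87-fold. Socs1, itself an interferon-induced gene, was at 0.35, within 3 spot SDs, and a link to these genes was not tested. Among genes known to be repressed by Bcl6, 4 of 11 were higher and 7 lower (median -0.15), a list that holds Cish and Socs2 themselves. Its median lay between -0.15 and -0.05 over the alternative processings, nearest to 0 under normexp with quantile normalization. Its other genes of size were Cdkn1a, the p21 inhibitor of the cell cycle (0.94, 1729 and 3454 units), Irf4 (0.53, spot SD 0.49) and Id2 (-0.48).

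**Figure D5:**
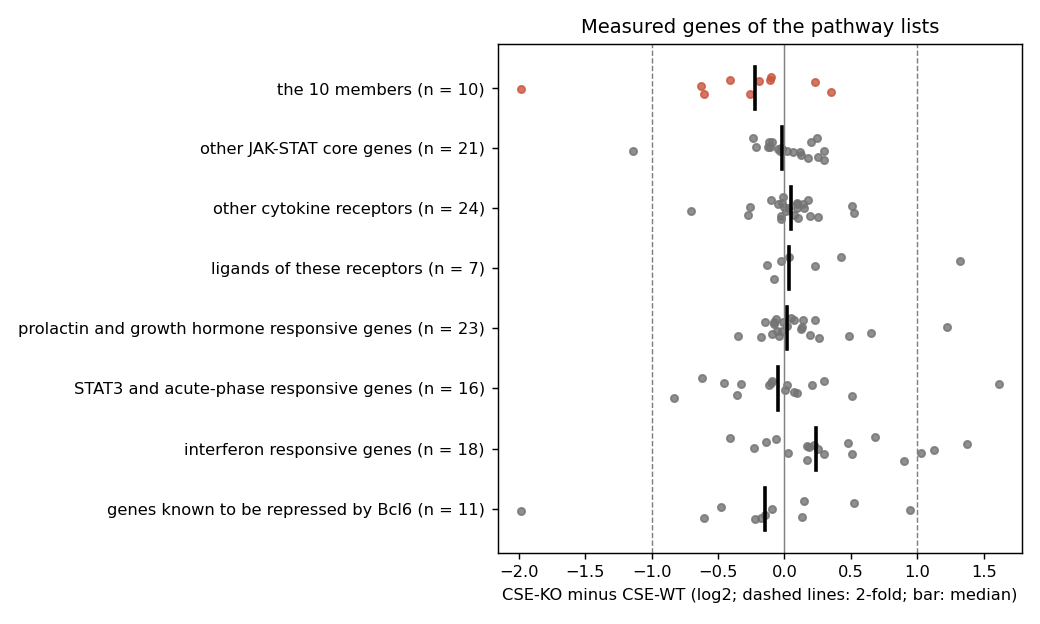
Difference CSE-KO minus CSE-WT (log2) of each measured gene of the members (red) and of 7 pathway lists (grey), with the median of a list as a black bar and dashed lines at 2-fold. The members' median is -0.22 and that of the interferon list 0.24, while the others lie between -0.15 and 0.05.

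Markers of several cell types also differed between the samples. Macrophage markers, cells that express cytokine receptors and SOCS genes, were higher in CSE-KO in 8 of 8 genes (0.06 to 0.62), with a summed intensity of 26554 units in CSE-WT and 35766 in CSE-KO. The brightest of them, Itgam, differed by 0.40, but its other probes gave 0.08 and 0.24. Other probes of Csf1r, itself at 0.06, gave 0.08 and 0.40, and that of Adgre1, itself at 0.125, gave 0.23. All 5 measured markers of stellate cells and fibroblasts were higher (0.32 to 1.04), with sums of 1374 and 2106 units. Alpha-cell markers were lower in 5 of 5 (-0.66 to -0.14), with sums of 595942 and 548791 units, among them the transcription factor gene Irx1 at -0.66. Erythroid markers were lower in 3 of 3 (-0.56 to -0.46). Of all measured genes 51.3% were lower. Beta-cell markers ranged from -0.21 to 0.11, with 4 higher and 5 lower, and the 3 of 7 lymphocyte markers that were measured ranged from -0.04 to 0.02, although other probes of Cd4 and Cd79a gave 0.29 and -0.25. Acinar markers were mixed, with 3 of 8 higher and 5 lower (median -0.10), and endothelial markers ranged from -0.03 to 0.13. No defining marker of beta or alpha cells or macrophages was below background. The part of these shifts in the values of Cish, Socs2, Socs3 and Ghr was not tested.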

How the data were processed

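Intensities were deposited by the authors as Agilent Feature Extraction output of 2 one-colour arrays. Per the file headers, version 10.7.1.1 detrended each array without local background subtraction, whereas the submitters' processing notes name 9.5.1.1. RNA was extracted with TRIzol and amplified with a low-input kit, per the labels' protocols. The authors' deposited table of intensities had a median of 37.7 units in both columns and matched its own array (r = 0.9999 across probes); it is on a linear scale, not centred, and the exact steps behind it are unknown.

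From these files, log2 intensities were averaged over spots of a probe without outlier-flagged spots (0 among the members) and scaled to the 75th percentile. No gene spot was saturated. Probes above background numbered 31716 (CSE-WT) and 33177 (CSE-KO). Names other than the members' came from RefSeq by accession (27325 probes), symbol (3523) or older symbol (551), and 24282 kept the name in the file. Coordinates are mm9, and the exon or UTR of a probe was not determined. A 2-fold difference stood in for a test, and 3 spot SDs, added after values were seen, described technical noise. The members and lists were chosen with earlier results of these data known. Named genes were all members, up to 4 of each list with the largest differences, Cth, Ins1, Ins2 and Gcg as sample checks, and the 3 nearest to Cish on each side above the median level; further names, those past 3 spot SDs included, were chosen after their values were seen. A few listed genes are not reported here and were left out of the list counts. The arithmetic was tested on simulated data. Tools were Python 3.11.15, R 4.3.3 and limma 3.58.1, the last for the normexp (offset 50), quantile and cyclic loess alternatives.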

Additional observations from a re-analysis of the deposited data

How the results depend on the processing

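Each member was recomputed under 12 alternatives (scaling, normalization, background correction, the authors' table, spot and probe rules, dim genes, local patches) and 1 patch rule added after seeing the data. Under all 13, 1 member (Cish) was at least 2-fold lower and 0 were 2-fold higher. The Cish difference moved by more than its spot SD under normexp with the 75th percentile (-1.89) and normexp with quantile normalization (-1.88); the cause was not tested. Every member kept its sign wherever it could be computed: Ghr from -0.44 to -0.37, Jak2 from 0.18 to 0.26, Bcl6 from -0.28 to -0.22, Socs2 from -0.62 to -0.53, Socs3 from -0.63 to -0.57 and Socs1 from 0.19 to 0.38. Prlr ranged from -0.13 to -0.04, Stat5a from -0.21 to -0.16 and Stat5b from -0.12 to -0.02. Stat5a, Socs1 and Socs2 had no value above the median level. The medians of the JAK-STAT core (-0.02 to 0.02) and of the prolactin and growth hormone responsive genes (-0.03 to 0.06) took both signs. So did that of the ligand list (-0.10 to 1.33), where Ghrl was the only measured gene above the median level. The interferon median stayed above 0 (0.14 to 0.28). That of Bcl6-repressed genes stayed below 0 (-0.15 to -0.05), but the list holds Cish and Socs2, so nothing is read from its sign. No member probe lay in a local patch. Leaving out a replicate was not possible. No paired analysis was possible because each genotype had 1 array. Signal over background limits Socs1 most.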

Other observations

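The nearest measured genes on either side of a member on the chromosome, by the order of protein-coding genes in the RefSeq table and chosen after the members' values were seen, gave a local comparison. The measured neighbours of Cish were Mapkapk3, a stress-activated kinase gene, at -0.38 (1842 and 1473 units in CSE-WT and CSE-KO, spot SD 0.07), and Hemk1, a methyltransferase gene, at 0.16 (1044 and 1215 units, spot SD 0.07). The neighbours of Socs2 were Cradd, a death-domain adaptor gene, at -0.11 (860 and 827 units) and Mrpl42, of the mitochondrial ribosome, at -0.09 (2072 and 2017 units). Those of Socs3 were Tha1 at 0.21 (336 and 404 units) and Pgs1 at -0.03 (7880 and 8049 units). Those of Ghr were Selenop, the selenium carrier gene, with 1 unmeasured gene between them, at -0.11 (68269 and 65893 units) and Fbxo4 at -0.10 (3031 and 2932 units). None of these 8 neighbours reached 2-fold, but only 1.61% of all measured genes did, so nothing is read from that count. Mapkapk3 was past 3 spot SDs, on the same side as Cish. The neighbours of the other members are not listed.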
